A study of Mus musculus with 6 samples.

Results

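The genes described here were integrins and the adhesion ligands that bind them, measured by RNA-Seq in cultured mouse cortical astrocytes with and without BRAF K499E (KE). They were chosen by symbol: the subunits *Itgam*, *Itgal*, *Itgb2*, *Itga4*, *Itgb1*, *Itgav*, *Itgb5* and *Itgb8* and the ligands *Icam1* and *Vcam1*, 10 of the 55357 genes listed. All 10 passed the filter on low values that 15280 genes passed. KE cultures (n = 3) carried the K499E genotype through transfection of a plasmid with the CMV promoter, which is not restricted to astrocytes, driving BRAF KE fused to a FLAG tag. Nontransfected cultures (NT, n = 3; genotype given as naive) received no plasmid according to their titles and treatment labels, although the treatment protocol in the labels is worded alike for both groups. All 6 cultures were prepared from the cortices of C57BL/6 embryos and collected at 48 hours. No culture with an empty plasmid or with wild-type BRAF is among the samples, so the effects of KE and of transfection itself cannot be told apart. The labels do not say whether the 3 cultures of a group came from separate litters, so p-values measure only the spread between these cultures.

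Integrins are cell surface receptors made of 1 alpha and 1 beta subunit, and the pairing sets the ligand. The β2 integrins, with αM (*Itgam*, CD11b) or αL (*Itgal*, CD11a) on the β2 chain (*Itgb2*, CD18), belong to leukocytes and, in the brain, to microglia and macrophages. They bind ICAM-1, whereas α4β1 binds VCAM-1. The αV integrins bind matrix proteins, and αVβ8, which astrocytes express, releases active TGF-β from its latent complex.

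Some facts of the libraries bear on every value below. Values are normalized counts, that is, estimated gene counts divided by a size factor per culture. Depth was estimated by dividing the total of each culture by its most common low value, taken as 1 read. It was approximately 24500000 reads in KE replicate 2, the lowest, to 34100000 reads in KE replicate 1, the highest. *Braf* was at 34933 to 40978 in KE and 811 to 946 in NT, as the labels require. Astrocyte markers were abundant, with 12 markers summing to 211856 to 218379 in KE and 151442 to 160643 in NT. All 20 markers of microglia and macrophages, none of them an integrin, were called lower in KE, against 26.0% of all tested genes. They summed to 7174 to 10038 in KE, where replicate 2 was the highest, and to 60704 to 77795 in NT, where replicate 3 was the lowest, and none of the 20 was at 0 in every culture. Of 10 lymphocyte markers, none passed the filter and 5 (*Cd3d*, *Cd3e*, *Cd3g*, *Cd8a* and *Nkg7*) were at 0 in all cultures. Of 8 endothelial markers, 3 passed the filter, and *Cdh5* and *Cldn5* stayed at or below 5.94 in every culture, whereas *Flt1*, the most abundant, was at 197 to 246 in KE and 273 to 428 in NT.

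Of the 10 genes, 2 were called higher and 5 lower in KE than in NT, at an adjusted p-value below 0.05 by limma with Benjamini-Hochberg adjustment. Among all tested genes 51.3% were called, 25.3% higher and 26.0% lower, so the number called in this family is to be read against a comparison in which about every other gene was called. The values of KE and NT did not overlap for 8 of the 10, against 59.9% of all tested genes. In 6 of these all KE values lay below all NT values (29.9% of all tested genes) and in 2 above (30.1%). The leukocyte chains *Itgam*, *Itgal* and *Itgb2* each had a log2 fold change (log2FC) of −3 or lower, as did 1.59% of all tested genes. The median log2FC was −0.33 over the 10 genes and 0.0018 over all tested genes.

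**Figure D1:**
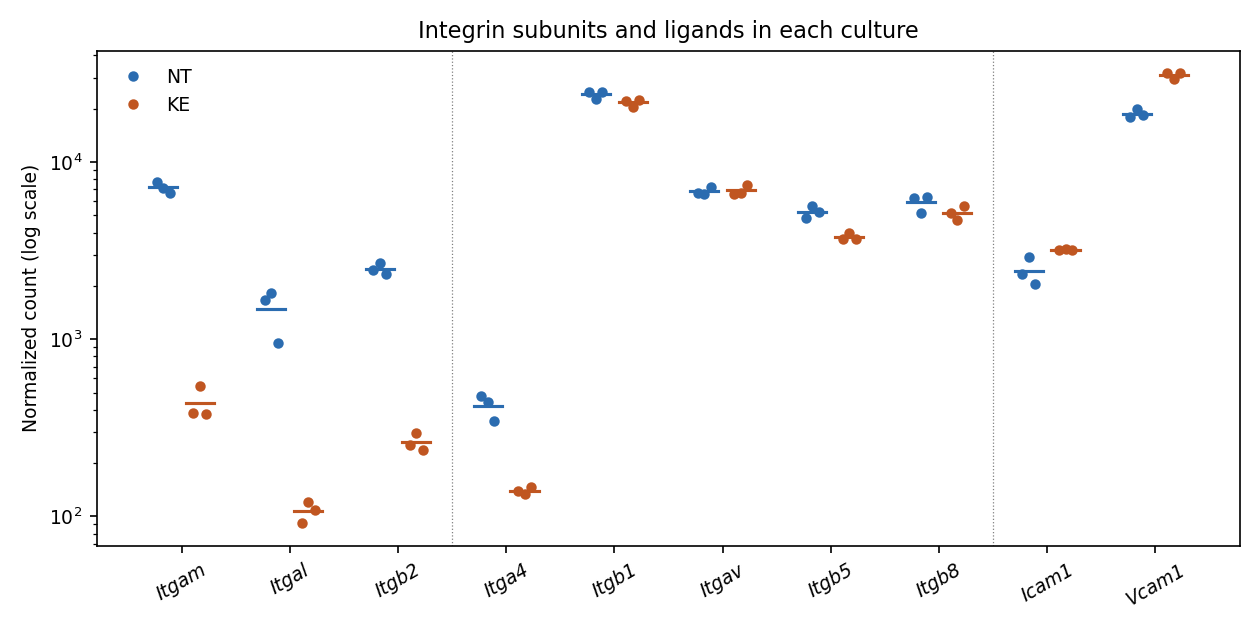
Normalized count (log axis) of each gene in the 3 NT (blue) and 3 KE (orange) cultures; points are cultures and bars are group means, with leukocyte β2 chains on the left, other subunits in the middle and ligands on the right. *Itgam* lies between 377 and 544 in KE and between 6703 and 7755 in NT, whereas the groups overlap for *Itgav* and *Vcam1* is higher in every KE culture.

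*Itgam* (ENSMUSG00000030786, chr7:127661808-127717753, plus strand, GRCm39) encodes αM, which with β2 forms complement receptor 3 and binds ICAM-1, fibrinogen and the complement fragment iC3b. Its normalized counts were 381, 544 and 377 in KE replicates 1, 2 and 3, and 7755, 7116 and 6703 in NT replicates 1, 2 and 3. Every KE culture was thus more than an order of magnitude below every NT culture, and KE replicate 2, which also had the highest sum of microglia and macrophage markers in its group, was the highest of the KE cultures. The group means were 434 ± 95.1 in KE and 7191 ± 530 in NT (SD, n = 3 each), a log2FC of −4.07 ± 0.12 (SE; 95% confidence interval −4.34 to −3.79; limma adjusted p = 4.34e-09), or 16.8-fold lower in KE. Ordered from the lowest log2FC, *Itgam* was number 41 of the 15280 tested genes. A gene model on the same strand, *Gm49368*, overlaps *Itgam*, with a mean of 23.1 over the 6 cultures. In bulk samples, fewer cells of a type and less RNA per cell cannot be told apart, which holds for this and each result that follows.

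As *Itgam* had the lowest log2FC and *Icam1* was a ligand that moved in the other direction, the 250 bases before the RefSeq start of each are given 5′ to 3′ on GRCm39 coordinates found by exact match of the RefSeq windows (GRCm38.p6). RefSeq windows of 300 bases (250 before and 50 after the start) were at hand for 7 of the 10 genes, the others being *Itgal*, *Itgb2* and *Vcam1*. Capitals in *Itgam* mark the core letters of the motif of PU.1, a transcription factor of the myeloid lineage (GAGGAA or, on the other strand, TTCCTC). Capitals in *Icam1* mark, in this order, a RelA-type NF-κB motif (GGAANTTCC) and a gamma-interferon activated site (TTCNNNGAA).
Itgam, chr7:127661562-127661811, plus strand: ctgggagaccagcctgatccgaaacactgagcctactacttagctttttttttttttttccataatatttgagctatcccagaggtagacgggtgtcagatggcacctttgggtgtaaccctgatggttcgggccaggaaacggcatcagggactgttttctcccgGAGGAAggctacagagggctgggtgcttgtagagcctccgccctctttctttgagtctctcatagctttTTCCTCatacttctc
Icam1, chr9:20926986-20927235, plus strand: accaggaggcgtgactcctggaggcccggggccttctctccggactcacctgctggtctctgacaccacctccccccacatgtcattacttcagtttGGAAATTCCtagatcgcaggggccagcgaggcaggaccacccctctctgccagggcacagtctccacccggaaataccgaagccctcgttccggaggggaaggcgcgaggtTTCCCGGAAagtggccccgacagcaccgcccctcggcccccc

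In *Itgam* the PU.1 letters lay 84 to 79 and 15 to 10 bases before the start, and another match lay after it. Such letters stood on either strand in 28.3% of the 32851 RefSeq windows of the same length, including those of *Itgav* (2 matches) and *Itgb1* (1 match), neither of which was called. In *Icam1* the NF-κB letters lay 153 to 145 bases before the start, a match held by 0.928% of all windows. The gamma-interferon activated site lay 42 to 34 bases before it, with a match in 8.30% of windows. The windows of *Itga4*, *Itgb5* and *Itgb8* held no match to these 3 motifs, nor did any of the 7 windows hold the AP-1 letters TGANTCA (7.81% of all windows) or the longer NF-κB consensus (8.46%), also searched on both strands. These are matches of letters in a window, and binding was not measured.

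*Itgal* (ENSMUSG00000030830, chr7:126895432-126934320, plus strand) encodes αL, which forms LFA-1 with β2, the main leukocyte receptor of ICAM-1. Its normalized counts were 91.2, 121 and 109 in KE and 1663, 1832 and 952 in NT. The groups did not overlap, and NT replicate 3, which had the lowest sum of microglia and macrophage markers in its group, was also the lowest NT culture for *Itgal*. The means were 107 ± 15.1 and 1482 ± 467, a log2FC of −3.73 ± 0.21 (interval −4.19 to −3.27; limma adjusted p = 1.45e-07), or 13.3-fold lower in KE. Without NT replicate 3 the log2FC of *Itgal* was −4.02.

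*Itgb2* (ENSMUSG00000000290, chr10:77366086-77401542, plus strand) encodes the β2 chain that both αM and αL require to reach the cell surface. It was at 253, 296 and 236 in KE and at 2467, 2683 and 2334 in NT, so that the spread within a group was small beside the gap between groups. The means were 262 ± 30.7 and 2495 ± 176, a log2FC of −3.25 ± 0.10 (interval −3.46 to −3.04; limma adjusted p = 4.34e-09), or 9.52-fold lower.

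The β2 chain and both alpha partners described here fell. Per kilobase of transcript, *Itgam* exceeded *Itgb2* by a ratio of 2.10 to 2.49 in NT and 1.19 to 1.46 in KE, with no overlap between the groups. The ratio of *Itgal* to *Itgb2* per kilobase was 0.231 to 0.387 in NT and 0.204 to 0.262 in KE, and these ranges overlapped. Ratios and shares are given as descriptions and were not tested. The remaining β2 partners were near the limit of detection and below the filter. *Itgax* (αX, CD11c) was listed at 1.81 to 3.75 in KE and 11.4 to 14.5 in NT, and *Itgad* was at 0 in 5 of 6 cultures. *Itgb2l* was at 0 in all 6.

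Because the 20 microglia and macrophage markers fell too (median log2FC −3.35, from −4.66 for *Mrc1* to −0.88 for *P2ry12*), each leukocyte chain was also expressed as a percentage of their summed level in the same culture. *Itgb2* was 2.95% to 3.53% of that sum in KE and 3.24% to 3.85% in NT, so the groups overlapped on this scale. *Itgam* was 5.21% to 5.42% in KE and at least 9.15% in each NT culture, and *Itgal* 1.21% to 1.51% in KE and 1.57% to 2.36% in NT. On this scale *Itgam* and *Itgal* remained lower in all KE cultures, *Itgal* by a narrow margin. The part of microglia or macrophages in the fall of the 3 chains was not tested beyond these values. In the methods for primary astrocytes, dishes were shaken before the cells were replated, a step that removes loosely attached cells such as microglia. The methods give this step for the cultures in general, without naming KE or NT.

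**Figure D2:**
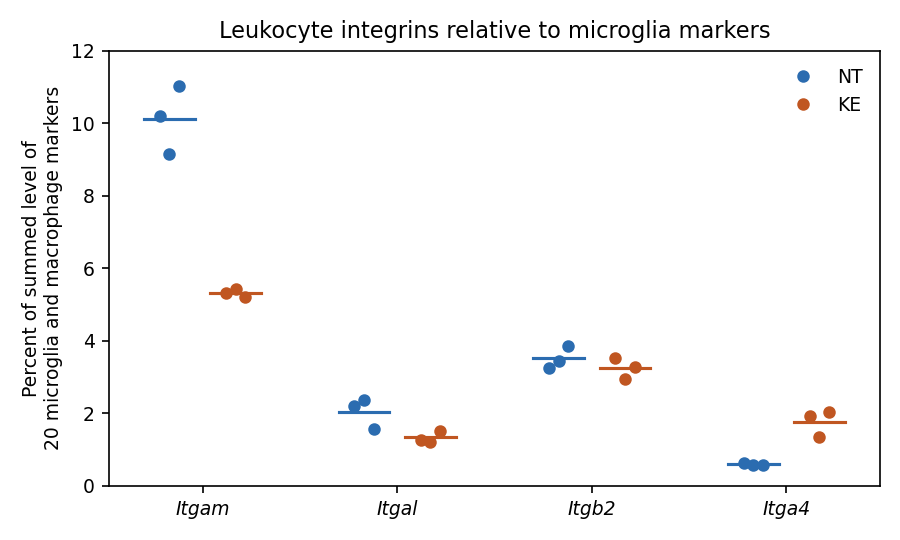
Normalized count of *Itgam*, *Itgal*, *Itgb2* and *Itga4* as a percentage of the summed normalized counts of 20 microglia and macrophage markers, in the 3 NT (blue) and 3 KE (orange) cultures; points are cultures and bars are group means. *Itgam* lies lower in KE, *Itgb2* overlaps, and *Itga4* lies higher in KE (1.34% to 2.02% against 0.571% to 0.626%).

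*Itga4* (ENSMUSG00000027009, chr2:79085660-79163467, plus strand) encodes α4, which binds VCAM-1 and fibronectin as α4β1. Per kilobase it had the lowest level of the 10 genes, with means of 14.0 in KE and 42.4 in NT. Its normalized counts were 139, 134 and 146 in KE and 476, 444 and 346 in NT. The KE cultures were close together, and all lay below the lowest NT culture, replicate 3. The means were 140 ± 6.19 and 422 ± 67.6, a log2FC of −1.58 ± 0.13 (interval −1.87 to −1.28; limma adjusted p = 3.08e-06), or 2.98-fold lower. This fall was smaller than that of the marker sum, and relative to that sum *Itga4* was higher in KE. *Cerkl*, on the opposite strand, overlaps it with a mean of 15.5. The other partner of α4, β7 (*Itgb7*), did not pass the filter, at 1.88 to 4.08 in KE and 0.779 to 8.20 in NT.

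*Itgb1* (ENSMUSG00000025809, chr8:129411876-129460618, plus strand) encodes β1, the most widely shared beta chain. Its normalized counts were 22227, 20447 and 22402 in KE and 24814, 22560 and 24964 in NT. All KE cultures lay below all NT cultures, but KE replicate 3 and NT replicate 2 were close together. The means were 21692 ± 1082 and 24113 ± 1347, and the log2FC of −0.15 ± 0.06 (interval −0.29 to −0.01) did not pass the threshold (limma adjusted p = 0.0673). It did so without NT replicate 2, at −0.20 (limma adjusted p = 0.0376), and with quantile normalization, at −0.21 (limma adjusted p = 0.0173). It also did so with the replicate number as a block in the fit, at −0.15 (limma adjusted p = 0.022), although no label pairs the cultures by this number. Per kilobase, *Itga4* was 0.00315 to 0.00330 of *Itgb1* in KE and 0.00699 to 0.00992 in NT.

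*Itgav* (ENSMUSG00000027087, chr2:83554403-83637260, plus strand) encodes αV, the shared alpha chain of the receptors that recognize the RGD motif of vitronectin, fibronectin and latent TGF-β. It was at 6631, 6698 and 7402 in KE and at 6728, 6599 and 7253 in NT, and the groups overlapped. The means were 6910 ± 427 and 6860 ± 347, with a log2FC of 0.01 ± 0.06 (limma adjusted p = 0.906). The 95% confidence interval of −0.13 to 0.15 bounds the difference that these cultures leave room for.

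Of the beta partners of αV, *Itgb5* was called and *Itgb8* was not, and the difference between them was not tested. *Itgb5* (ENSMUSG00000022817, chr16:33649988-33771137, plus strand), whose product forms the vitronectin receptor αVβ5, was at 3692, 3980 and 3681 in KE and 4849, 5636 and 5215 in NT. No KE culture reached the lowest NT culture, and the log2FC was −0.47 ± 0.07 (interval −0.61 to −0.32; limma adjusted p = 0.000159). The means were 3784 ± 170 and 5233 ± 394. *Itgb8* (ENSMUSG00000025321, chr12:119121748-119202584, minus strand), the partner in the TGF-β-activating receptor αVβ8, was at 5166, 4720 and 5676 in KE and 6234, 5174 and 6322 in NT. The groups overlapped because NT replicate 2 lay below KE replicate 3. The means were 5188 ± 478 and 5910 ± 639, and the log2FC of −0.19 ± 0.09 (interval −0.38 to 0.01) was not called (limma adjusted p = 0.0999). Without NT replicate 2 it was −0.28 and called (limma adjusted p = 0.0163), and without KE replicate 3 it was −0.25 and called (limma adjusted p = 0.049). With the replicate number as a block it was −0.19 and called (limma adjusted p = 0.0142). Without KE replicate 2 it was −0.12 (limma adjusted p = 0.309) and without NT replicate 3 −0.13 (limma adjusted p = 0.275). *Itgb3*, a further αV partner, was scarce, with means of 24.5 ± 3.89 in KE and 48.1 ± 8.83 in NT, and was called lower (log2FC −0.94 ± 0.25; limma adjusted p = 0.00872). *Itgb6* was at 0 in 4 of 6 cultures.

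Both ligand genes of the family rose. *Icam1* (ENSMUSG00000037405, chr9:20926672-20940113, plus strand) encodes ICAM-1, the immunoglobulin-family receptor for LFA-1 and complement receptor 3 that inflammatory cytokines induce. It was at 3194, 3210 and 3208 in KE and at 2323, 2899 and 2044 in NT. The KE cultures were nearly identical, and all lay above NT replicate 2, the highest of a more scattered group. The means were 3204 ± 8.65 and 2422 ± 436, a log2FC of 0.42 ± 0.10 (interval 0.19 to 0.65; limma adjusted p = 0.00589), or 1.34-fold higher. It remained called when any culture was left out, with a log2FC of 0.30 to 0.56.

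*Vcam1* (ENSMUSG00000027962, chr3:115903598-115923355, minus strand) encodes VCAM-1, the ligand of α4β1. It was at 31669, 29517 and 31701 in KE and 17846, 19802 and 18381 in NT, with a wide gap between the groups. The means were 30962 ± 1252 and 18677 ± 1011, a log2FC of 0.73 ± 0.06 (interval 0.59 to 0.87; limma adjusted p = 2.93e-06), or 1.66-fold higher. Per kilobase *Vcam1* had the highest level of the 10 genes in both groups, with means of 8900 in KE and 5368 in NT, followed by *Itgb1* with 4329 and 4812. The NT levels of this pair are close, whereas in KE they are far apart. Astrocyte markers, whose sum was higher in KE, moved in the same direction as *Vcam1* and *Icam1*, 9 of 12 being called higher, against 25.3% of all tested genes, and *Gja1* lower. Of the endothelial markers that passed the filter, *Flt1* and *Pecam1* were called lower, and endothelial markers summed to 243 to 304 in KE and 339 to 497 in NT.

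**Figure D3:**
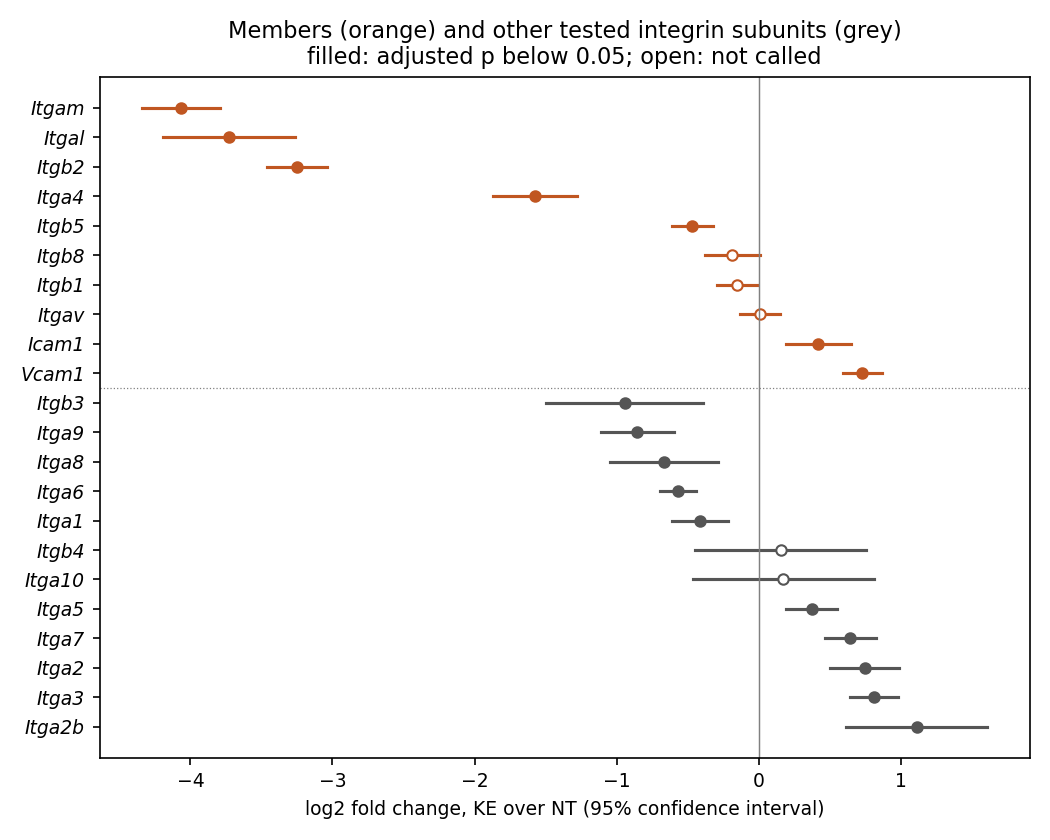
Log2FC of KE over NT with its 95% confidence interval for the 10 genes (orange) and the 12 other integrin subunits that passed the filter (grey); filled points were called by limma and open points were not. The leukocyte chains lie between −4.07 and −3.25, far from every other subunit, of which *Itga4* is the nearest at −1.58.

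*Icam1* and *Vcam1* rose while the chains of their leukocyte receptors *Itgal*, *Itgam* and *Itga4* fell. Per kilobase, *Icam1* was 2.33 to 3.58 times *Itgal* in NT and 44.1 to 58.3 times in KE. *Icam1* was 0.357 to 0.485 times *Itgam* in NT and 7.03 to 10.1 times in KE, so the order of these 2 genes was inverted. *Vcam1* was 107 to 152 times *Itga4* in NT and 620 to 652 times in KE. The ratio of *Vcam1* to *Icam1* per kilobase was 6.17 to 8.13 in NT and 8.31 to 8.96 in KE.

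Seen over all alpha chains per kilobase, *Itgam* had the largest share in NT and *Itgav* in KE. *Itgam* made up 38.0% ± 1.76 of the alpha subunit transcripts per kilobase in NT and 3.83% ± 0.87 in KE (SD, n = 3 each). *Itgal* made up 5.58% ± 1.65 in NT and 0.676% ± 0.0845 in KE, and *Itga4* 0.838% ± 0.111 and 0.464% ± 0.0180. *Itgav* held 18.4% ± 1.45 in NT and 30.8% ± 0.712 in KE, although its own level was not called different. The total of all alpha chains was 5054 ± 150 per kilobase in NT and 3031 ± 148 in KE, so a constant chain takes a larger share in KE. Of the beta chains, *Itgb1* held 60.6% ± 2.01 in NT and 70.0% ± 1.21 in KE. *Itgb2* held 10.6% ± 1.01 in NT and 1.43% ± 0.219 in KE, and *Itgb5* (19.8% and 18.4%) and *Itgb8* (8.84% and 9.97%) differed less between the groups. The order of the beta chains in NT was *Itgb1*, *Itgb5*, *Itgb2* and *Itgb8*, with the last pair close together, and in KE *Itgb2* was the last of the 4.

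**Figure D4:**
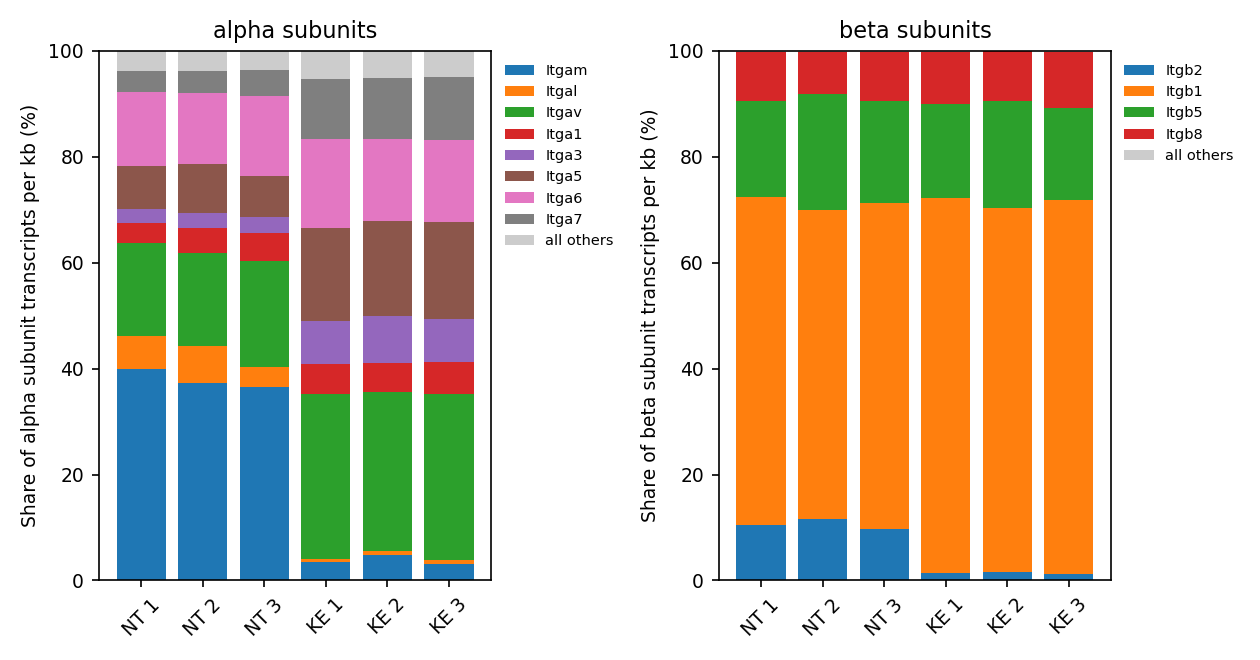
Share of each alpha (left) and beta (right) integrin subunit in the summed normalized counts per kilobase of transcript of all subunits of that kind, for each NT and KE culture. The share of *Itgam* lies between 36.6% and 40.0% in NT and between 3.16% and 4.81% in KE, and that of *Itgav* between 17.5% and 20.1% in NT and between 30.1% and 31.4% in KE.

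The counts of the lists that follow are to be read against the shares of all tested genes, 25.3% called higher and 26.0% called lower. Of 19 other integrin subunits, 12 passed the filter, 5 being called higher, 5 lower and 2 not called (median log2FC 0.17). *Itga3*, a laminin receptor chain, was higher (log2FC 0.81 ± 0.08; limma adjusted p = 6.44e-06). *Itga2b*, the platelet αIIb chain, had the highest log2FC at 1.11 ± 0.23 (limma adjusted p = 0.00181), on a low level of 67.0 to 89.6 in KE and 27.6 to 41.2 in NT. *Itga9* was lower, at −0.85. *Itga5*, the fibronectin receptor chain that pairs with β1, was at 2224 to 2577 in KE and 1673 to 2041 in NT (log2FC 0.37 ± 0.08; limma adjusted p = 0.00315).

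Of 9 other immunoglobulin-family ligands, 6 passed the filter, 2 being called higher and 3 lower (median −0.45). *Icam5*, a neuronal ligand of LFA-1, was at 74.3 to 78.6 in KE and 29.7 to 37.3 in NT (log2FC 1.22 ± 0.20; limma adjusted p = 0.000398), and *Jam3* was higher at 0.30. *Madcam1*, the ligand of α4β7, was lower (log2FC −0.90 ± 0.20; limma adjusted p = 0.00332), and *F11r* was lower at −0.85. *Icam2* and *Icam4* did not pass the filter and were not tested. The ICAM genes that were tested, *Icam1* and *Icam5*, were both called higher.

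Of 18 tested matrix ligands, 3 were called higher, against 25.3% of all tested genes, and 9 lower, against 26.0% (median −0.26). *Fn1*, fibronectin, which α5β1, α4β1 and the αV integrins bind, was at 4940, 5302 and 5767 in KE and 10880, 10682 and 14648 in NT (log2FC −1.16 ± 0.11; limma adjusted p = 6.59e-06), and *Lamb1* was lower at −0.95. *Spp1*, osteopontin, a ligand of αV integrins, was at 113911 to 117412 in KE and 69494 to 76810 in NT (log2FC 0.65 ± 0.07; limma adjusted p = 1.60e-05), and *Lama4* was higher at 0.49. *Vtn*, vitronectin, was at 0 to 2.62 in all cultures and below the filter.

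The TGF-β axis was followed through 9 genes of its ligands and latency proteins, of which 2 were called higher and 3 lower. *Tgfb1* was at 183, 251 and 199 in KE and 844, 911 and 785 in NT (log2FC −2.01 ± 0.12; limma adjusted p = 2.55e-07). *Nrros*, which anchors latent TGF-β on microglia and macrophages and presents it to αVβ8, was at 68.0, 54.8 and 49.4 in KE and 370, 367 and 317 in NT (log2FC −2.60 ± 0.15; limma adjusted p = 2.09e-07). Both genes thus fell, as did the 20 microglia and macrophage markers (median −3.35), whose part in this was not tested. *Itgav* and *Itgb8* were not called, although the call of *Itgb8* changed under some alternatives. The difference between the fallen genes and these subunits was not tested. *Tgfb2* (0.23) and *Ltbp1* (0.37) were higher, and 1 gene in place of 2 was called higher without any one of KE replicates 1 and 3 and NT replicates 1 and 2.

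Downstream of the receptors, the adhesion complex shared by many cells had 5 of 20 tested genes called higher, a share like the 25.3% of all tested genes, and 9 lower, against 26.0% (median −0.08). Its outermost members were *Ptk2b* (−1.57) and *Parvb* (−1.32) on the low side and *Actn4* (0.65) and *Tns1* (0.45) on the high side. The list of leukocyte integrin activation held genes linked to this process, among them a restrainer, *Cytip*. Of its 11 tested genes, 10 were called lower, against 26.0% of all tested genes, and 1, *Cytip*, was called higher (median −2.81). *Fermt3*, kindlin-3, which switches β2 integrins to their high-affinity form, was at 65.4, 82.3 and 54.4 in KE and 1015, 1179 and 823 in NT (log2FC −3.89 ± 0.17; limma adjusted p = 2.58e-08). *Dock2* was lower at −3.85, close to *Fermt3*. *Cytip*, a restrainer of β2 integrin adhesion, was at 29.0, 40.6 and 12.3 in KE and 3.47, 4.08 and 7.32 in NT. It passed the filter only through its KE values, so its call is given as a description. The 20 microglia and macrophage markers moved with this list, and their part in it was not tested.

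Selectins act before integrins in leukocyte capture. *Selplg*, the P-selectin ligand of leukocytes, was at 29.3 to 50.3 in KE and 287 to 404 in NT (log2FC −3.24 ± 0.22; limma adjusted p = 5.78e-07), *Selp* was lower at −0.75, and *Cd44* was higher at 0.74 ± 0.06 (limma adjusted p = 2.51e-06). NF-κB feedback genes, whose transcription factor is a known inducer of *Icam1* and *Vcam1*, had 5 of 9 called higher, against 25.3% of all tested genes, and none lower (median 0.24). *Tnfaip3* was at 1700, 1636 and 1943 in KE and 828, 878 and 712 in NT (log2FC 1.13 ± 0.09; limma adjusted p = 2.60e-06), and *Relb* was higher at 0.62. For the lowest of the 5, *Tnip1* (0.21) and *Nfkbia* (0.24), the differences were small. Whether NF-κB had a part in the values of *Icam1* and *Vcam1* was not tested.

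**Figure D5:**
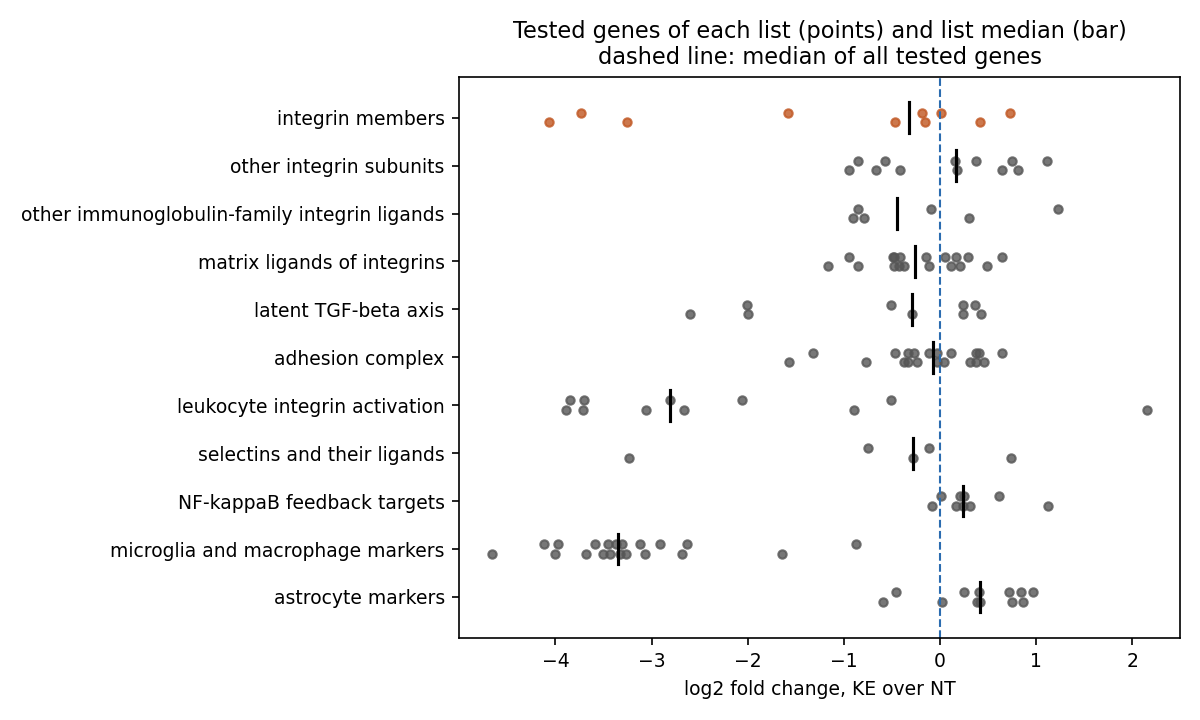
Log2FC of KE over NT for each tested gene (points) of the 10 integrin and ligand genes (orange) and of each gene list named in the text (grey), with the median of each list as a bar and the median of all tested genes as a dashed line. The list of leukocyte integrin activation (median −2.81) and the microglia and macrophage markers (median −3.35) lie far below the other lists.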

How the data were processed

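mRNA from 3 KE and 3 NT astrocyte cultures was sequenced from stranded libraries. The authors deposited 1 table of a normalized signal per gene and culture, made with Trim Galore, STAR, Salmon and DESeq2 size factors according to the methods and the submitters' processing notes. These notes list GRCh38, whereas the identifiers are of mouse and the methods give GRCm39. The methods mention batches without naming them, so none was modelled. Reads could not be recovered (of the low values, 74.8% to 77.7% were whole multiples of 1 read, with a tolerance of 0.1), so no count test was run and values carry no counting error of their own.

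KE and NT were compared with limma 3.58.1 (R 4.3.3), with a variance trend and no covariate, on log2(normalized count + 1), which understates differences of scarce genes. The 15280 genes averaging 10 or more over the 6 cultures entered, all two-sided p-values were adjusted together (Benjamini-Hochberg), and an adjusted p below 0.05 was called. Lists were described by counts and medians. Levels per kilobase used the length of the canonical transcript of Gencode vM39 on GRCm39, which held 54749 of the 55357 identifiers. Other genes named from the lists were those with the 2 lowest or 2 highest log2FC among the called genes of a list. *Itgax*, *Itga5*, *Itgb3*, *Itgb7*, *Tgfb1*, *Nrros*, *Fermt3*, *Fn1* and *Vtn* were named for their roles. *Ltbp2* was added after its values were seen, as were *Itgad*, *Itgb2l*, *Itgb6*, *Icam2* and *Icam4*, which were below the filter. *Cdh5*, *Cldn5* and the lymphocyte markers *Cd3d*, *Cd3e*, *Cd3g*, *Cd8a* and *Nkg7*, also below the filter, were named for their low values. The members and lists were chosen with earlier results of these data known. Alternatives were other pseudocounts, filters and scalings, no trend, the replicate number as a block and leaving out each culture.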

Additional observations from a re-analysis of the deposited data

How the results depend on the processing

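Of 140 log2FC of the 10 genes computed under alternatives, 131 kept their direction and side of the threshold. Of 308 counts of called genes, 239 were equal to the count reported, 64 differed by up to 1.5 times and 5 by more. *Itgb1* passed the threshold with quantile normalization (log2FC −0.21, limma adjusted p = 0.0173), with the replicate number as a block (−0.15, 0.022) and without NT replicate 2, its range without single cultures being −0.20 to −0.11. *Itgb8* passed it with the block (−0.19, 0.0142) and without KE replicate 3 or NT replicate 2 (range −0.28 to −0.12). *Itgav* ranged from −0.0406 to 0.0506 without single cultures and was below 0 without KE replicate 3, NT replicate 1 (−0.0035) or NT replicate 2 (−0.0175). The number of genes of the 10 called lower was 5 to 7 without single cultures, and 2 were called higher throughout. TGF-β axis genes called higher numbered 1 to 3 without single cultures. No gene of leukocyte integrin activation was called higher with a mean of at least 50 required, since *Cytip* was then not tested. For *Itgb1*, *Itgb8*, *Itgav* and the TGF-β axis the cause was not tested.

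With the replicate number as a block, 2 of the 10 genes were called higher and 7 lower, and 3967 and 4079 of all genes against 3870 and 3974 without it. The numbers do not pair the cultures by any label. Deviations of cultures with the same number correlated at 0.0589 to 0.0664 over genes and each culture correlated best with its own number, a hint from the data only. Quantile normalization moved the median log2FC of all genes to 0.0288, and the share of calls that were higher from 49.3% to 52.8%. Depth, lowest in KE replicate 2, limits genes near the filter such as *Itgax*.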

Other observations

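The genes whose profile over the 6 cultures lay nearest to 3 members were found by the Euclidean distance between centred log2 values, over all tested genes apart from predicted symbols. Nearest to *Itgam* were *Ch25h*, cholesterol 25-hydroxylase, at a distance of 0.23 (means of 73.6 in KE and 1230 in NT), the chemokine *Ccl12* at 0.25 and the receptor *Fcrls*, one of the microglia and macrophage markers, at 0.28. Their log2FC of −4.08, −4.10 and −4.12 stood beside −4.07 for *Itgam*. Nearest to *Vcam1* were *Fkbp7* (0.0892), *Anxa7* (0.0995) and *Ddx24* (0.101), with log2FC of 0.78, 0.75 and 0.72. Nearest to *Itgb8* were the ubiquitin ligase *Ube3a* (0.0611), the receptor *Bmpr2* (0.0842) and the kinase *Taok1* (0.0866). Distances of nearly flat genes are small by construction, and the 6 values of each gene come from the same libraries, so these likenesses are a description without a test.

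Markers of other cell types that such cultures can hold moved as follows. The counts are to be read against the 25.3% of all tested genes called higher and the 26.0% called lower. Of 8 oligodendrocyte lineage markers 7 were called lower and none higher (median log2FC −0.65). Of 8 mesenchymal markers 3 were called higher and 3 lower (median −0.23). Of 6 tested neuron markers 1 was called higher and 2 lower (median −0.04), counts near the shares of all tested genes. Their part in the values of *Itgav*, *Itgb1* and *Itgb5* was not tested.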
